A study of Mus musculus with 8 samples.

Results

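The actin cytoskeleton genes are the 47 genes of a list that names the cytoplasmic actins, the Arp2/3 complex and its promoters, the monomer-binding and turnover proteins, tropomyosins, myosin II subunits, crosslinkers, capping proteins, vimentin, the ERM proteins and focal adhesion linkers, among others. They were found by matching each listed symbol to the Ensembl gene identifiers of the deposited count tables. All 47 matched a single identifier among the 52636 genes of a table, and all 47 were among the 15248 genes that passed the low-count filter and were tested. The RNA came from whole livers of 8 male, wild-type C57BL/6J mice, all kept from 8 weeks of age, for 24 weeks, on the MASH diet, which is rich in fat, fructose and cholesterol. At 7 weeks of age 4 of them had received AAV8-TBG-GFP (AAV8-GFP) and 4 had received AAV8-TBG-AGXT (AAV8-AGXT). The vector, an adeno-associated virus with a tropism for liver, carried GFP or human AGXT behind the TBG promoter, which is active in hepatocytes. AGXT converts glyoxylate to glycine. All 8 mice received a virus and the diet, so the values compare AAV8-AGXT with AAV8-GFP within the diet.

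Actin monomers join into filaments that are nucleated by the Arp2/3 complex or formins, kept short or long by capping, severing and monomer-binding proteins, and pulled on by myosin II. Tropomyosins coat the filaments, alpha-actinins and filamin link them to each other, talin and vinculin tie them to integrins, and ERM proteins tie them to the plasma membrane. In the liver, hepatocytes carry filaments around the bile canaliculus, activated stellate cells build contractile stress fibres, and migrating leukocytes depend on branched actin. The comparison asks which of these genes differed between the livers given AGXT and those given GFP.

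Levels are CPM, read counts relative to the library size as corrected by TMM. Within AAV8-GFP they are listed in the order of mice 303, 311, 314 and 315, and within AAV8-AGXT in the order of mice 308, 309, 316 and 319. Each table summed to between 17095433 and 28780140 read pairs on genes. The share of tallied read pairs that fell on genes was lowest in mouse 308, at 56.3%, and between 62.4% and 69.1% in the others. Whole liver was sequenced, so fewer cells of a type and less RNA per cell cannot be told apart. Hepatocyte transcripts dominated, the 8 hepatocyte markers summing to between 48537 and 59122 CPM in AAV8-GFP mice and between 57759.9 and 80609 CPM in AAV8-AGXT mice. The AAV8-AGXT mean of this sum was 127.6% of the AAV8-GFP mean. Differences between the groups were tested with edgeR, and adjusted p-values are over all 15248 tested genes. A difference was called at an adjusted p under 0.05.

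Of the 47 genes, 7 were called lower in AAV8-AGXT mice and 0 were called higher. Among all tested genes, 1.90% were called lower and 2.45% were called higher. The 7 genes were Tmsb10, Vim, Rhoc, Tpm4, Myl12b, Tpm1 and Cfl1, and in each of them every AAV8-AGXT mouse lay below every AAV8-GFP mouse. At an unadjusted p under 0.05, edgeR placed 21 of the 47 genes lower and 2, Actg1 and Wasl, higher, where 12.6% of all tested genes were lower and 13.5% higher by that criterion, 26.2% in either direction. The Wald test of DESeq2 called 13 lower and 1, Actg1, higher, against 6.91% and 7.06% of all genes. None of the 47 genes was called by edgeR without AAV8-GFP mouse 311, without AAV8-GFP mouse 314 or without AAV8-AGXT mouse 319, and 15, 15 and 16 of them were then lower at an unadjusted p under 0.05, against 8.84%, 10.6% and 10.5% of all genes in the same fits. Over all genes, those fits called 0, 4 and 2 genes lower and 2, 11 and 12 higher. Without mouse 303 only Tmsb10 was called, and without mouse 308 the count was 4.

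The groups did not overlap in 15 of the 47 genes, lower in 13 and higher in 2, that is 27.7% and 4.26% of them. Over all tested genes the same held for 7.63% in the lower and 8.93% in the higher direction. The median log2 fold change of the 47 genes was -0.25, where that of all tested genes was 0.02. Scaling by total counts alone, without TMM, moved the median of all genes to -0.22 and that of the 47 genes to -0.47. The distance of the 47 genes from all genes was then -0.25, compared with -0.27 under TMM. Of the 47 genes, 33 had a negative and 14 a positive log2 fold change under TMM.

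**Figure D1:**
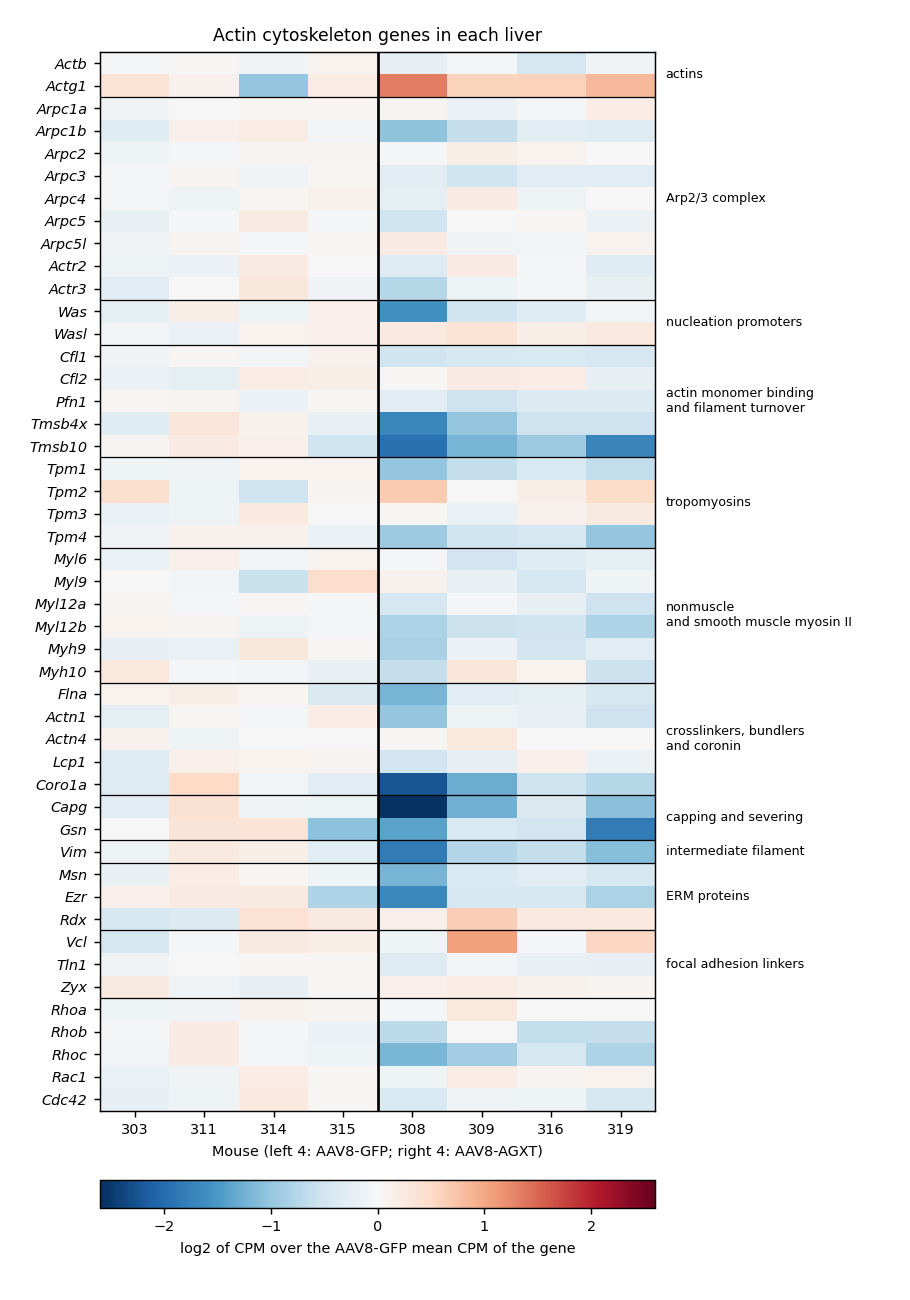
Each row is a gene, grouped by role, and each column a mouse, with colour giving the log2 of CPM over the gene's AAV8-GFP mean. Tmsb10, Vim, Coro1a and Capg are among the darkest rows on the AAV8-AGXT side, where mouse 308 has the lowest value of all 8 mice in 24 of the 47 genes, while Actg1 is red in all 4 AAV8-AGXT mice.

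Added up, the 47 genes took 5876, 6372, 6141 and 6152 CPM in the AAV8-GFP mice and 5003, 5471, 5241 and 5316 CPM in the AAV8-AGXT mice. Every AAV8-AGXT sum was below every AAV8-GFP sum, and their mean was 85.7% of the AAV8-GFP mean. Mouse 308 had the lowest value of all 8 mice in 24 of the 47 genes, mouse 303 in 7, and no other mouse in more than 4. The median coefficient of variation of the 47 genes between mice was 12.2% in AAV8-GFP and 16.9% in AAV8-AGXT. It reached its highest value for Gsn in AAV8-GFP, at 37.2%, and for Capg in AAV8-AGXT, at 54.5%.

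Per kb of exon, Actb had the highest level of the list, at 422 and 369 CPM per kb (means of AAV8-GFP and AAV8-AGXT mice). Tmsb4x stood at 273 and 149 CPM per kb, Pfn1 at 149.7 and 115 CPM per kb, Cfl1 at 126 and 92.4 CPM per kb and Actg1 at 106 and 195 CPM per kb. By these means Actg1 came after Actb, Tmsb4x, Pfn1 and Cfl1 in AAV8-GFP mice and directly after Actb in AAV8-AGXT mice. At the other end were Vcl at 1.24 and 1.68 CPM per kb and Was at 2.02 and 1.41 CPM per kb.

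The actins had log2 fold changes of opposite sign. Actb encodes beta-actin and Actg1 gamma-actin, the cytoplasmic isoforms, which are almost identical proteins. Actb stood at 1114, 1158, 1056 and 1198 CPM in AAV8-GFP and 969.8, 1086, 836 and 1059 CPM in AAV8-AGXT mice (log2 fold change -0.20 ± 0.13 SE, adjusted p = 0.367). The groups overlapped, mice 309 and 319 of the AAV8-AGXT group lying above mouse 314 of the AAV8-GFP group. Actg1 (chromosome 11, 120345690 to 120348542, GRCm38) stood at 361, 305, 139.9 and 325 CPM in AAV8-GFP and 706, 422, 430.4 and 509.8 CPM in AAV8-AGXT mice. All 4 AAV8-AGXT mice were above all 4 AAV8-GFP mice, mouse 308 being the highest and mouse 314 the lowest. The log2 fold change was 0.87 with a standard error of 0.28, and the adjusted p of edgeR, 0.0945, missed the threshold that DESeq2 passed at 0.0245.

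The coding sequences of Actg1 and Actb, taken from GENCODE M21, are both 1125 bases long and identical at 88.6% of them. The first 90 coding bases of each are shown because they let a reader see how read pairs of the genes are told apart, with capitals where they differ.
Actg1: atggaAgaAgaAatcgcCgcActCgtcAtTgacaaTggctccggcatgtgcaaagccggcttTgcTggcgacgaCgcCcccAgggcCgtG
Actb: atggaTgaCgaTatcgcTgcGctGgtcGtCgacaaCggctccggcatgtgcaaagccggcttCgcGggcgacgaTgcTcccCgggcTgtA
Within this stretch 16 bases differ. The longest identical run over the whole coding sequences is 62 bases, shorter than the 67 bases of a read that was not cut further for its quality. Reads that quality trimming cut further can match both genes. Actg1 also has other copies, because 54.6% of the 67-base stretches of its longest transcript occur unchanged in 10 annotated pseudogenes, compared with 4.75% for Actb. Read pairs aligned at several places were between 17.4% and 20.6% of the tallies in AAV8-GFP mice and between 19.5% and 23.4% in AAV8-AGXT mice, and their part in the Actg1 values was not tested.

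The Arp2/3 complex nucleates branched filaments from its actin-related subunits Actr2 and Actr3 and the subunits Arpc1 to Arpc5. None of its 9 genes was called by edgeR. An unadjusted p under 0.05 was reached by 2 of the 9, both lower, against 12.6% of all genes lower and 26.2% in either direction. DESeq2 called the same 2, Arpc1b and Arpc3, lower, against 6.91% of all genes. Arpc1b, the subunit isoform prominent in blood cells, stood at 69.5, 94.6, 97.6 and 82.0 CPM in AAV8-GFP and 41.4, 56.2, 69.6 and 69.2 CPM in AAV8-AGXT mice (log2 fold change -0.54 ± 0.18 SE, adjusted p = 0.0963). Mouse 308 was lowest, and only mouse 303 of the AAV8-GFP group reached down to the AAV8-AGXT values. The exons of Arpc1b overlap those of Pdap1 on the other strand over 18.2% of their length, so its level is uncertain if strand was not used in the counting. Its alternative isoform Arpc1a stood at 56.4, 60.1, 62.2 and 62.2 CPM and 63.6, 54.3, 58.3 and 69.2 CPM, with fully mixed groups. Arpc3 was at 104, 114, 102 and 112 CPM in AAV8-GFP and 87.5, 75.1, 88.8 and 89.5 CPM in AAV8-AGXT mice, without overlap (log2 fold change -0.34 ± 0.10 SE, adjusted p = 0.0733).

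For the other subunits the mice were mixed. The log2 fold changes were -0.25 (adjusted p = 0.372) for Actr3, -0.14 (adjusted p = 0.558) for Arpc5, -0.10 (adjusted p = 0.699) for Actr2 and -0.03 (adjusted p = 0.914) for Arpc4. They were 0.04 (adjusted p = 0.813) for Arpc5l and 0.05 (adjusted p = 0.763) for Arpc2. Arpc1a, Arpc2 and Arpc5l are positive under TMM and negative when scaled by total counts or by upper quartiles. The level of Actr3 is uncertain, since 38.9% of its 67-base stretches also occur in 2 pseudogenes.

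Was and Wasl encode WASP and N-WASP, which switch the Arp2/3 complex on downstream of Cdc42. WASP belongs to blood cells and N-WASP is found in most tissues. Was stood at 4.10, 5.45, 4.43 and 5.25 CPM in AAV8-GFP and 1.59, 3.37, 3.85 and 4.58 CPM in AAV8-AGXT mice (log2 fold change -0.51 ± 0.28 SE, adjusted p = 0.282), where mouse 319 lay above mice 303 and 314. Wasl stood at 51.3, 48.5, 57.6 and 59.3 CPM and 64.7, 68.9, 61.5 and 64.7 CPM, with every AAV8-AGXT mouse above every AAV8-GFP mouse (log2 fold change 0.26 ± 0.09 SE, adjusted p = 0.120). Wasl and Actg1 were the only genes of the 47 with that arrangement.

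The proteins that hold actin monomers or turn filaments over had the lowest summed level in AAV8-AGXT relative to AAV8-GFP mice of the roles with more than 2 genes, 66.4%. Profilin 1 (Pfn1) feeds monomers to growing ends, thymosins beta 4 (Tmsb4x) and beta 10 (Tmsb10) sequester them, and the cofilins Cfl1 and Cfl2 sever old filaments. Summed over the 5 genes, levels were between 1166 and 1385 CPM in AAV8-GFP mice and between 729 and 922 CPM in AAV8-AGXT mice. The groups did not overlap in 4 of the 5 genes, all 4 lower, where this held for 7.63% of all tested genes. By the test 2, Tmsb10 and Cfl1, fell, against 1.90% of all tested genes. Tmsb10 (chromosome 6, 72957347 to 72958748, GRCm38) stood at 124, 139, 130.5 and 82.7 CPM in AAV8-GFP and 31.0, 51.6, 61.8 and 36.4 CPM in AAV8-AGXT mice. Mouse 315 was the lowest of its group and still above all AAV8-AGXT mice. The AAV8-AGXT mean was 38.0% of the AAV8-GFP mean, the largest decrease of the 47 genes (log2 fold change -1.40 ± 0.23 SE, adjusted p = 0.0278). The call was kept with 5 of the 8 mice left out in turn.

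Tmsb4x stood at 300.2, 466, 403 and 327 CPM in AAV8-GFP and 116, 182, 258 and 258 CPM in AAV8-AGXT mice, without overlap (log2 fold change -0.88 ± 0.25 SE, adjusted p = 0.0736). Mouse 308 was lowest and mouse 311 highest. The short coding sequences of the thymosins are printed over their first 90 bases, with differing bases in capitals, since both transcripts are abundant and small.
Tmsb10: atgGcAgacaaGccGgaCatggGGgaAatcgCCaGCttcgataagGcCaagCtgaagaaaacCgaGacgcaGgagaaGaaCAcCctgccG
Tmsb4x: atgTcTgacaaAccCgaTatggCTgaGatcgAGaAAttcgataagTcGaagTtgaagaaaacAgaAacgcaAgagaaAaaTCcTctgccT
Here 23 of 90 bases differ, and over all 132 coding bases the identity was 69.7% with no identical run above 10 bases. Tmsb10 shares 36.2% of its 67-base stretches with 2 other annotated genes, neither of them Tmsb4x, so its level is uncertain.

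Cfl1 stood at 334, 369, 339 and 389 CPM in AAV8-GFP and 249, 267, 273 and 263 CPM in AAV8-AGXT mice. The 4 AAV8-AGXT values lay close together and below all AAV8-GFP values (log2 fold change -0.44 ± 0.11 SE, adjusted p = 0.0492). The exons of Cfl1 overlap those of Snx32 on the other strand over 16.5% of their length, which makes its level uncertain in the same way. This call was the weakest of the 7, being lost with every single mouse left out and when no low-count filter was applied. Pfn1 stood at 371, 377, 322 and 370.2 CPM and 292, 249, 283 and 283 CPM, also without overlap (log2 fold change -0.38 ± 0.11 SE, adjusted p = 0.0774). Cfl2, the cofilin best known from muscle, was mixed between the groups at 40.7 ± 6.20 and 42.7 ± 5.48 CPM (SD, n = 4 each).

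**Figure D2:**
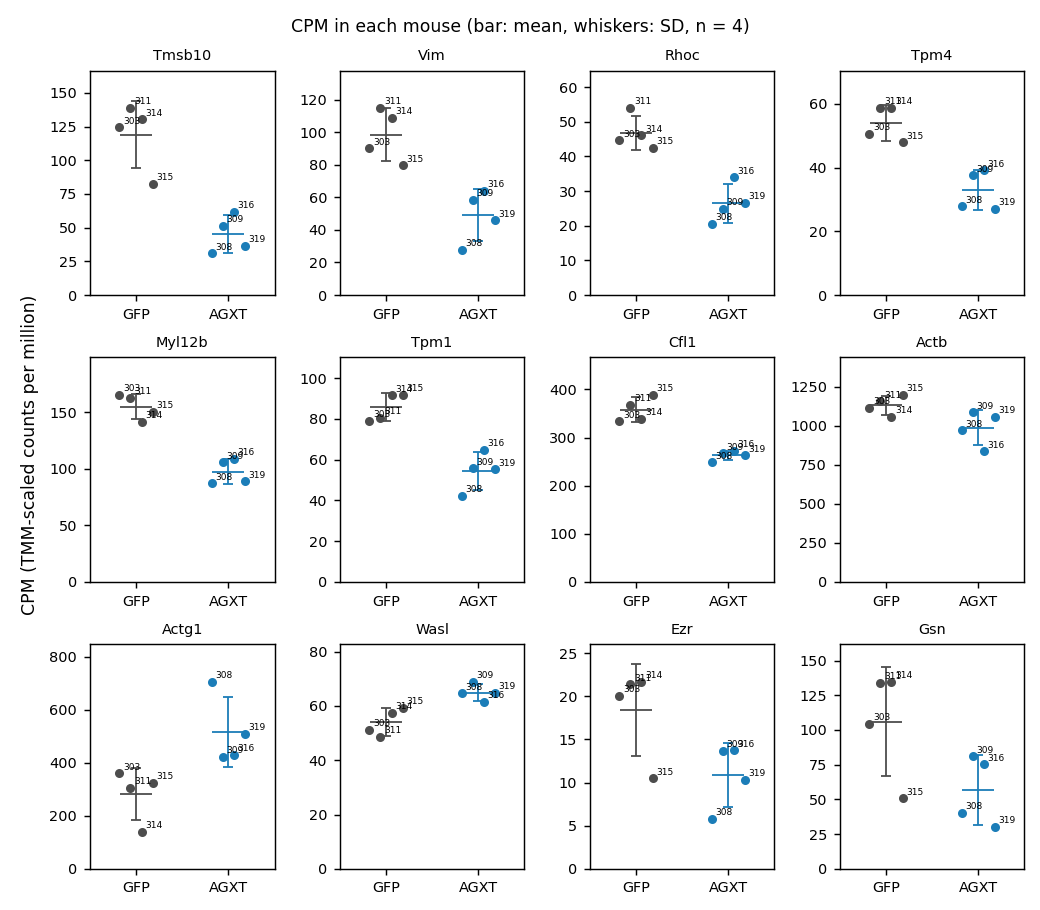
Dots are the CPM of each mouse, with the group mean and SD (n = 4), for the 7 genes called lower, both actins, Wasl, Ezr and Gsn. The 7 called genes show separate groups, Actg1 and Wasl are separate in the other direction, and in Ezr and Gsn mouse 315 of the AAV8-GFP group sits among the AAV8-AGXT mice.

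Tropomyosins wind along filaments and decide which proteins bind there. Of their 4 genes, 2 fell and 2 were not called. Tpm1 stood at 79.2, 80.4, 91.7 and 91.8 CPM in AAV8-GFP and 42.3, 55.8, 64.8 and 55.2 CPM in AAV8-AGXT mice (log2 fold change -0.65 ± 0.13 SE, adjusted p = 0.0363). Tpm4, whose short isoform is common in motile cells, stood at 50.6, 58.7, 58.7 and 47.9 CPM and 27.9, 37.6, 39.1 and 27.0 CPM (log2 fold change -0.71 ± 0.14 SE, adjusted p = 0.0363). In both genes the highest AAV8-AGXT mouse, 316, was below the lowest AAV8-GFP mouse, and both calls were kept with 3 of the 8 mice left out in turn. Of the 67-base stretches of Tpm4, 10.2% also occur in the pseudogene Gm7809. Tpm3 was at 82.9 ± 11.5 and 86.5 ± 9.91 CPM (SD, n = 4 each) with a log2 fold change of 0.06 (adjusted p = 0.798), which turned negative under total-count and upper-quartile scaling, and 55.8% of its 67-base stretches occur in 4 other genes. Tpm2 was at 30.2, 20.6, 15.7 and 23.5 CPM and 35.9, 22.7, 25.2 and 31.3 CPM, with overlap (log2 fold change 0.35 ± 0.21 SE, adjusted p = 0.310).

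Myosin II pulls on filaments with heavy chains (Myh9, Myh10), essential light chains (Myl6) and regulatory light chains (Myl9, Myl12a, Myl12b). All 6 genes had a negative log2 fold change and 1, Myl12b, fell by the test. Myl12b (chromosome 17, 70973133 to 70990890, GRCm38) stood at 166, 163, 142 and 151 CPM in AAV8-GFP and 87.2, 106, 109 and 88.9 CPM in AAV8-AGXT mice (log2 fold change -0.67 ± 0.11 SE, adjusted p = 0.0279). Its spread within either group was small beside the gap between them, and the call was kept with 4 of the 8 mice left out in turn. The neighbouring gene Myl12a stood at 112, 104, 109.7 and 103 CPM and 78.8, 104, 92.6 and 73.6 CPM, with mouse 309 inside the AAV8-GFP range (log2 fold change -0.29 ± 0.12 SE, adjusted p = 0.164).

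Myl12a and Myl12b code for nearly the same protein, as the first 90 coding bases show, with capitals where they differ.
Myl12a: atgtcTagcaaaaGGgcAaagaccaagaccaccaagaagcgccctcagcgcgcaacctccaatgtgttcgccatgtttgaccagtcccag
Myl12b: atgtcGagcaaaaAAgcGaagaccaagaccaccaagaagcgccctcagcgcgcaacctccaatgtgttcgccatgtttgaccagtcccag
Only 4 of these 90 bases differ, the identity over 516 coding bases was 96.5%, and the longest identical run was 102 bases. Of the 67-base stretches of the longest transcript, 5.34% for Myl12a and 5.68% for Myl12b also occur in the partner gene or in the pseudogene Gm2805. The exons of Myl12b overlap, on the same strand and over 26.7% of their length, another annotated gene entry that is also named Myl12b. Those of Myl12a overlap annotated genes on the same strand over 13.75% of their length. Both the split between the genes and their sum are therefore uncertain.

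Myh9, a nonmuscle myosin heavy chain, stood at 230.3, 238, 326 and 274 CPM in AAV8-GFP and 149.8, 241, 189 and 217 CPM in AAV8-AGXT mice (log2 fold change -0.42 ± 0.17 SE, adjusted p = 0.157). Mouse 309 lay above mice 303 and 311, and mouse 308 was lowest. Myl6 was at 306 ± 29.6 and 255 ± 34.8 CPM (SD, n = 4 each) with a log2 fold change of -0.26 (adjusted p = 0.247), and Myh10 at 30.4 ± 4.44 and 27.7 ± 8.93 CPM with -0.13 (adjusted p = 0.732). Myl9, the light chain of smooth muscle, was scarce at 4.38 ± 1.25 and 3.98 ± 0.630 CPM and its log2 fold change was -0.14 (adjusted p = 0.739). That value turned positive without mouse 315. Of the 67-base stretches of Myl6, 14.4% also occur in 5 pseudogenes.

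**Figure D3:**
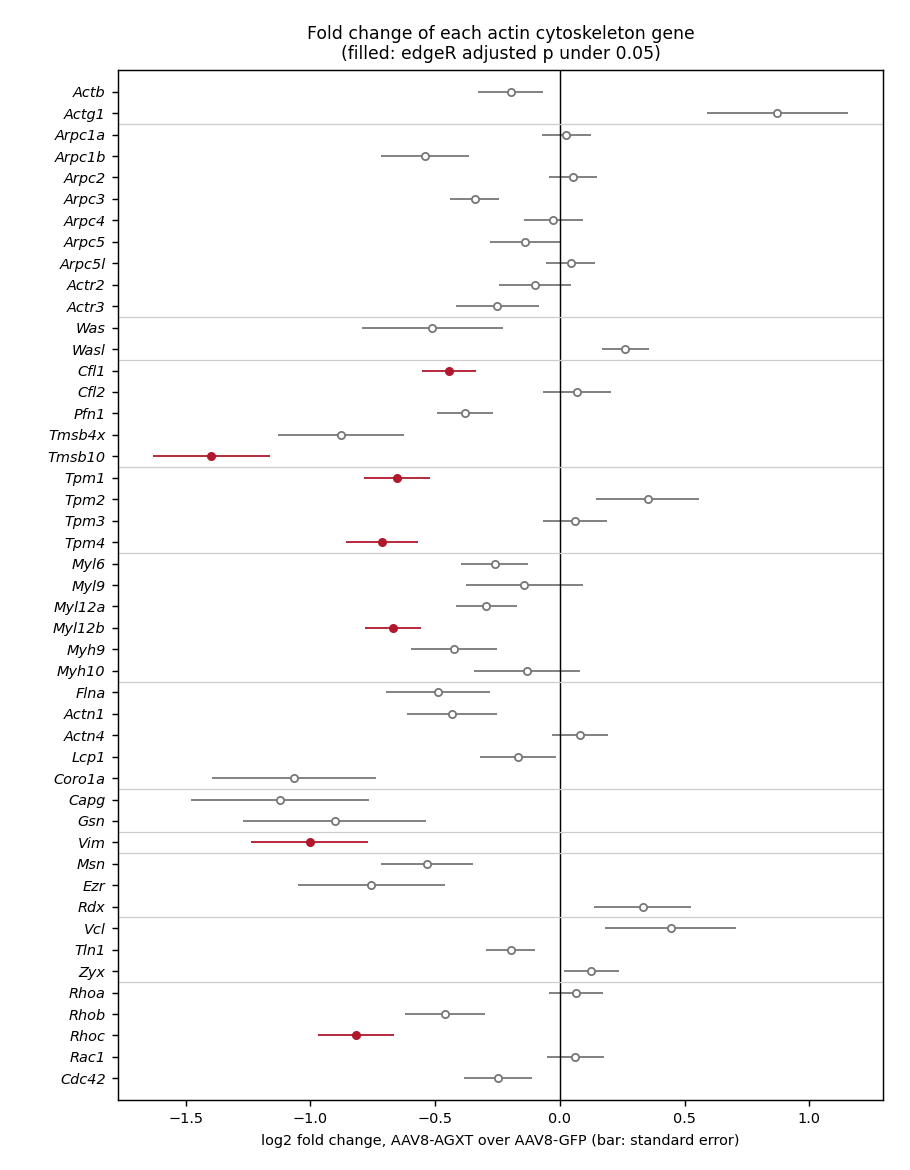
Points are the log2 fold changes of the 47 genes with their standard errors, in the order of their roles, and filled points are the 7 genes called by edgeR. Most genes lie left of zero, with Tmsb10 at -1.40, and Actg1 at 0.87 lies farthest to the right.

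Among crosslinkers and bundlers, no gene passed the edgeR threshold. At an unadjusted p under 0.05 edgeR placed 3 of 5 lower, against 12.6% of all genes lower and 26.2% in either direction. DESeq2 called 1, Coro1a, lower, against 6.91% of all genes. Coro1a, a coronin of leukocytes, stood at 27.0, 49.0, 32.6 and 28.0 CPM in AAV8-GFP and 7.18, 14.0, 23.5 and 20.3 CPM in AAV8-AGXT mice, without overlap (log2 fold change -1.06 ± 0.33 SE, adjusted p = 0.0833). Lcp1, the leukocyte plastin, was at 86.8, 119.9, 116 and 116 CPM and 77.9, 94.9, 119.8 and 98.5 CPM with mixed groups (log2 fold change -0.17 ± 0.15 SE, adjusted p = 0.522). Mouse 308 was lowest in both, and the difference between these genes was not tested. Flna (filamin A) stood at 100.5, 106, 97.7 and 72.6 CPM and 40.5, 77.3, 80.4 and 70.4 CPM, and mouse 315 alone among the AAV8-GFP mice lay within the AAV8-AGXT range (log2 fold change -0.49 ± 0.21 SE, adjusted p = 0.172). Alpha-actinin 1 (Actn1) was at 41.2 ± 5.03 and 30.5 ± 7.80 CPM (SD, n = 4 each) with -0.43 (adjusted p = 0.168), and alpha-actinin 4 (Actn4) at 185 ± 12.03 and 196 ± 19.7 CPM with 0.08 (adjusted p = 0.682). The Actn4 value was negative when scaled by total counts and without mouse 309.

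Capg caps filament ends in macrophages and gelsolin (Gsn) severs and caps them. Capg stood at 24.0, 37.9, 27.1 and 26.4 CPM in AAV8-GFP and 4.83, 12.1, 22.3 and 13.5 CPM in AAV8-AGXT mice, without overlap but with mouse 316 close to mouse 303 (log2 fold change -1.12 ± 0.36 SE, adjusted p = 0.0895). Gsn stood at 105, 134, 135 and 50.8 CPM and 40.5, 80.9, 75.3 and 30.0 CPM, mouse 315 being lower than mice 309 and 316 (log2 fold change -0.90 ± 0.37 SE, adjusted p = 0.157). Neither was called by edgeR. Both were lower at an unadjusted p under 0.05, against 12.6% of all genes, and DESeq2 called Capg lower, against 6.91% of all genes. Without mouse 316, edgeR also called Capg.

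Vim encodes vimentin, the intermediate filament of mesenchymal cells and leukocytes, and is the sole gene of the list outside the actin system. Vim (chromosome 2, 13573927 to 13582826, GRCm38) stood at 90.2, 115, 109 and 79.7 CPM in AAV8-GFP and 27.8, 58.4, 64.0 and 45.9 CPM in AAV8-AGXT mice. No values overlapped, and the AAV8-AGXT mean was 49.8% of the AAV8-GFP mean (log2 fold change -1.004 ± 0.23 SE, adjusted p = 0.0461). The call was kept with 2 of the 8 mice left out in turn.

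The ERM proteins ezrin, radixin and moesin link filaments to membrane proteins. Ezrin belongs to epithelia such as bile ducts, radixin to the canalicular membrane of hepatocytes and moesin to leukocytes and endothelium. Their genes had log2 fold changes of either sign and none was called by edgeR or DESeq2. At an unadjusted p under 0.05 edgeR placed 2 of 3 lower, against 12.6% of all genes lower and 26.2% in either direction. Msn stood at 50.0, 65.3, 59.3 and 52.7 CPM in AAV8-GFP and 24.6, 43.2, 46.8 and 42.5 CPM in AAV8-AGXT mice, without overlap (log2 fold change -0.53 ± 0.19 SE, adjusted p = 0.111). Ezr stood at 20.03, 21.4, 21.7 and 10.5 CPM and 5.80, 13.6, 13.7 and 10.3 CPM (log2 fold change -0.76 ± 0.29 SE, adjusted p = 0.142). Mouse 315 was far below the other AAV8-GFP mice and lay within the AAV8-AGXT range. Rdx, at 60.6, 63.4, 105 and 95.2 CPM and 88.9, 126, 96.5 and 97.3 CPM, overlapped with a positive log2 fold change (log2 fold change 0.33 ± 0.20 SE, adjusted p = 0.310).

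The focal adhesion linkers vinculin (Vcl), talin (Tln1) and zyxin (Zyx) were not called, and none had an unadjusted p under 0.05 in edgeR. Tln1 was at 148, 160.4, 163 and 163 CPM in AAV8-GFP and 126, 151, 138 and 138 CPM in AAV8-AGXT mice, with only mouse 309 inside the AAV8-GFP range (log2 fold change -0.20 ± 0.10 SE, adjusted p = 0.242). Vcl was scarce at 10.1 ± 2.003 and 13.8 ± 5.47 CPM (SD, n = 4 each), with 0.44 (adjusted p = 0.313), and Zyx was at 76.4 ± 10.1 and 83.3 ± 3.06 CPM with 0.13 (adjusted p = 0.496). Mouse 309 was the highest in Vcl. The exons of Vcl overlap those of Ap3m1 on the other strand over 25.5% of their length, and the strand setting of the counting is not given in the sources used here.

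RhoA and RhoC switch on formins and contraction, Rac1 and Cdc42 switch on the Arp2/3 complex, and RhoB acts partly from endosomes. Rhoc (chromosome 3, 104788375 to 104794459, GRCm38) stood at 44.6, 54.0, 46.1 and 42.5 CPM in AAV8-GFP and 20.5, 24.9, 34.0 and 26.7 CPM in AAV8-AGXT mice (log2 fold change -0.82 ± 0.15 SE, adjusted p = 0.0334). The groups were apart, and the call was kept with 4 of the 8 mice left out in turn. Rhob stood at 86.0, 104, 87.0 and 80.1 CPM and 55.9, 88.3, 57.3 and 57.9 CPM, where mouse 309 alone lay in the AAV8-GFP range (log2 fold change -0.46 ± 0.16 SE, adjusted p = 0.113). Without mouse 309 Rhob was called lower.

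Rhoa, Rac1 and Cdc42 gave mixed groups. Rhoa was at 97.1 ± 7.83 and 101 ± 10.4 CPM (SD, n = 4 each) with 0.06 (adjusted p = 0.749), and Rac1 at 92.4 ± 10.5 and 96.4 ± 8.71 CPM with 0.06 (adjusted p = 0.771). Both signs turned negative under total-count scaling and without mouse 309. Cdc42 was at 154 ± 22.3 and 129.5 ± 15.2 CPM with -0.25 (adjusted p = 0.273). The exons of Rac1 overlap those of Daglb on the other strand over 51.4% of their length. Of the 67-base stretches of Rhoa, 9.62% also occur in 2 pseudogenes.

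To compare related genes without any scaling between libraries, the ratio of their read pairs was formed within each mouse for 17 pairs. Group means of the log2 ratio were compared by exact permutation (two-sided, all 70 ways to split the mice), which cannot give a p below 0.0286. In 9 of the 17 pairs the test gave this smallest p, the ratio being higher in AAV8-AGXT mice in 3 pairs and lower in 6. Adjusted over the 17 pairs these values became 0.054 and 0 pairs passed 0.05. Some pairs share a gene, so they are not independent. Ratios compare genes of different length and hold for differences between mice only.

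The Actg1 to Actb ratio was 0.324, 0.263, 0.133 and 0.271 in AAV8-GFP and 0.728, 0.389, 0.515 and 0.481 in AAV8-AGXT mice, a difference of 1.13 on the log2 scale (exact permutation p = 0.0286). The Tpm2 to Tpm1 ratio was 0.382, 0.257, 0.172 and 0.256 and 0.848, 0.406, 0.389 and 0.568, a difference of 1.04 (exact permutation p = 0.0286). The Myl12a to Myl12b ratio was 0.678, 0.637, 0.773 and 0.682 and 0.903, 0.987, 0.850 and 0.828, a difference of 0.37 (exact permutation p = 0.0286). In these 3 pairs every AAV8-AGXT ratio was above every AAV8-GFP ratio, and mouse 308 had the highest ratio in the actin and tropomyosin pairs.

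In 6 pairs every AAV8-AGXT ratio was below every AAV8-GFP ratio. The Rhoc to Rhoa ratio was 0.498, 0.592, 0.438 and 0.417 in AAV8-GFP and 0.216, 0.213, 0.352 and 0.275 in AAV8-AGXT mice, a difference of -0.90 on the log2 scale (exact permutation p = 0.0286). The Msn to Rdx ratio was 0.825, 1.03, 0.563 and 0.554 and 0.277, 0.344, 0.485 and 0.437, a difference of -0.93 (exact permutation p = 0.0286). The part of any cell type in these ratios was not tested. The log2 differences were -0.87 for Was to Wasl, -0.79 for Tpm4 to Tpm3, -0.58 for Arpc1b to Arpc1a and -0.54 for Rhob to Rhoa (exact permutation p = 0.0286 each).

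The other 8 pairs overlapped. The closest to separation were Cfl1 to Cfl2 and Actn1 to Actn4, with log2 differences of -0.51 and -0.54 (exact permutation p = 0.0571 each). For Tmsb10 to Tmsb4x the difference was -0.50 (exact permutation p = 0.114). For Myl9 to Myl12b it was 0.57 (exact permutation p = 0.0857) and for Myh9 to Myh10 -0.25 (exact permutation p = 0.343). Msn to Ezr, Capg to Gsn and Arpc5 to Arpc5l gave differences of 0.21, -0.38 and -0.19 (exact permutation p = 0.400, 0.514 and 0.543).

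**Figure D4:**
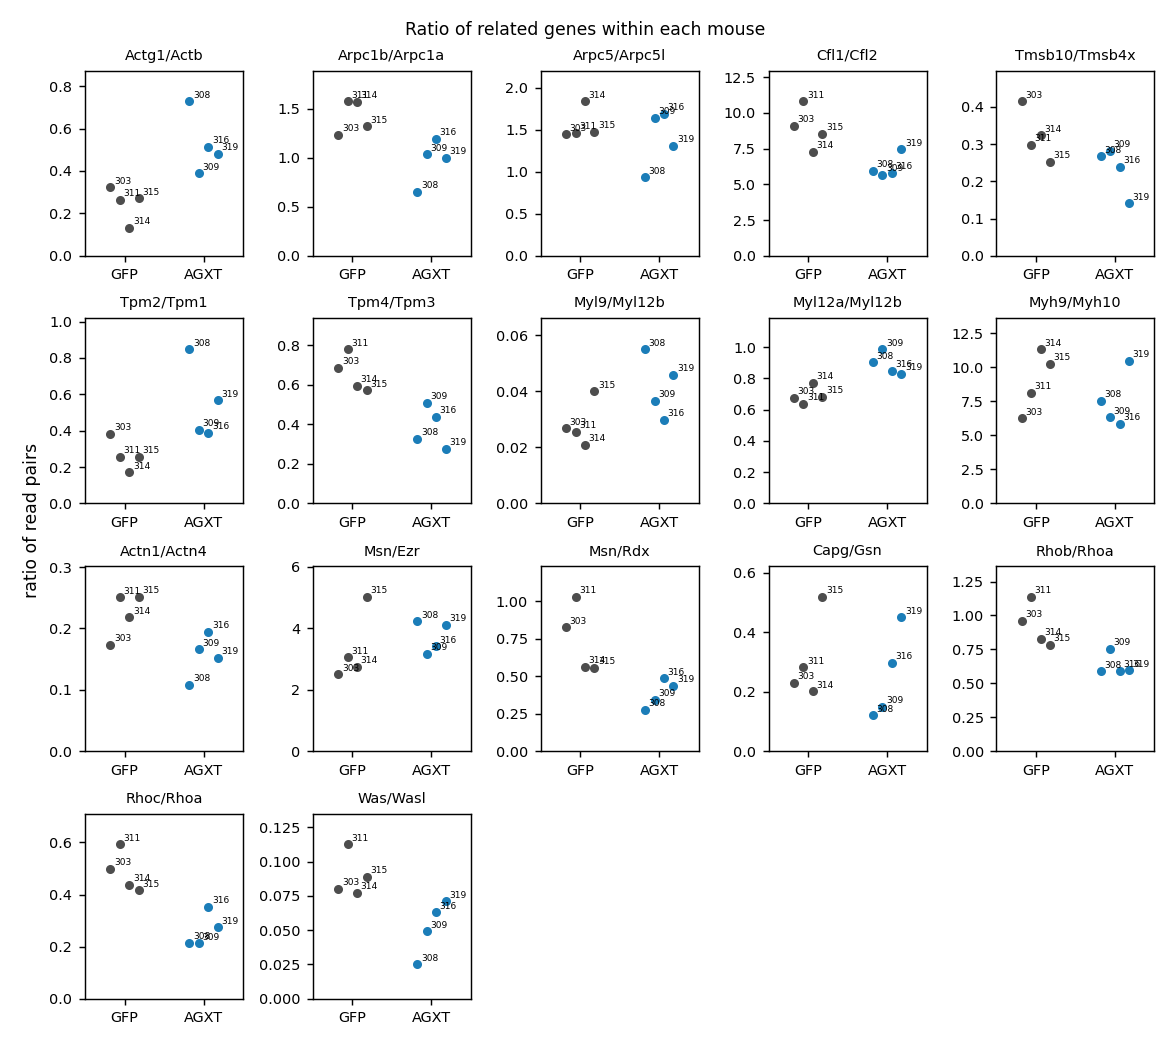
Each dot is the ratio of read pairs of the named genes in a mouse, on linear axes that start at 0, for the 17 pairs. Actg1 to Actb, Tpm2 to Tpm1 and Myl12a to Myl12b are higher in all 4 AAV8-AGXT mice than in any AAV8-GFP mouse, and Rhoc to Rhoa, Msn to Rdx and 4 further ratios are lower.

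Other genes of the actin pathway were looked at in 8 lists with 166 genes, of which 155 were tested. Of these, 7 were called lower and 1 higher, that is 4.52% and 0.645%, against 1.90% and 2.45% of all tested genes. Their median log2 fold change was -0.21, where that of all tested genes was 0.02. The groups did not overlap in 27 genes on the lower and 5 on the higher side, that is 17.4% and 3.23%. Over all tested genes the same held for 7.63% and 8.93%. Bundling, stress fibre and anchoring proteins held 3 of the called genes among 28 tested. Tagln2, a small actin bundler, stood at 73.5, 96.1, 106 and 70.3 CPM in AAV8-GFP and 17.9, 43.4, 46.3 and 29.7 CPM in AAV8-AGXT mice (log2 fold change -1.33 ± 0.27 SE, adjusted p = 0.0364). Iqgap3, a scaffold of dividing cells, was scarce at 2.84 ± 1.02 and 0.646 ± 0.311 CPM (SD, n = 4 each) and fell (log2 fold change -2.12 ± 0.38 SE, adjusted p = 0.0309). Marcksl1, a filament-anchoring substrate of protein kinase C, was at 29.9 ± 5.71 and 17.8 ± 1.89 CPM (log2 fold change -0.75 ± 0.15 SE, adjusted p = 0.0365). In all 3 genes every AAV8-AGXT mouse was below every AAV8-GFP mouse.

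The list of formins and other nucleators gave 1 called gene of 16, the formin Fhod1, at 26.6, 28.3, 26.1 and 26.6 CPM in AAV8-GFP and 19.9, 17.5, 20.5 and 16.2 CPM in AAV8-AGXT mice (log2 fold change -0.54 ± 0.11 SE, adjusted p = 0.0349). The list of capping, severing and turnover proteins gave 1 of 23, Cotl1, a cofilin antagonist, at 55.9 ± 6.86 and 31.6 ± 9.19 CPM (SD, n = 4 each, with log2 fold change -0.82 ± 0.20 SE, adjusted p = 0.0495). Focal adhesion gave 1 of 21, Pdlim7, a PDZ and LIM protein of stress fibres, at 25.8, 23.4, 22.5 and 22.1 CPM and 14.2, 13.1, 16.4 and 15.9 CPM (log2 fold change -0.65 ± 0.11 SE, adjusted p = 0.0279). Each of the 3 genes had separate groups. The single gene called higher was Dock1, an activator of Rac, at 9.22, 9.24, 11.2 and 10.4 CPM and 13.05, 17.97, 12.99 and 17.8 CPM (log2 fold change 0.63 ± 0.15 SE, adjusted p = 0.0493). It was called in none of the fits that left out a mouse. The WAVE complex and other Arp2/3 regulators gave 0 called genes of 20 in edgeR. An unadjusted p under 0.05 was reached by 4 of the 20, all 4 lower, against 12.6% of all genes lower by that criterion. DESeq2 called 3 of the 20 lower, against 6.91% of all genes.

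Of the muscle actins and smooth muscle genes, 5 of 9 passed the filter and 1 fell. Acta2, the smooth muscle actin that activated stellate cells and vessel walls express, stood at 9.68, 6.18, 6.23 and 11.2 CPM in AAV8-GFP and 3.87, 4.27, 4.62 and 3.92 CPM in AAV8-AGXT mice (log2 fold change -0.99 ± 0.22 SE, adjusted p = 0.0427). Its AAV8-AGXT values lay close together below the AAV8-GFP values, and the call was lost with each mouse left out. 

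Serum response factor (Srf) and its cofactors of the MRTF family sense the pool of free actin monomers and drive many actin genes through the CArG box. None of the 6 tested genes of that list was called by edgeR. At an unadjusted p under 0.05 edgeR placed 2 lower, against 12.6% of all genes lower and 26.2% in either direction. DESeq2 called 1 lower, against 6.91% of all genes. Srf was at 24.5 ± 1.18 and 26.4 ± 3.82 CPM (SD, n = 4 each) with 0.10 (adjusted p = 0.610). Mrtfa was at 14.4, 22.8, 17.4 and 16.3 CPM in AAV8-GFP and 13.5, 14.1, 10.1 and 11.8 CPM in AAV8-AGXT mice, without overlap (log2 fold change -0.52 ± 0.17 SE, adjusted p = 0.0919), and Mrtfb at 48.7 ± 5.60 and 36.9 ± 7.51 CPM with -0.40 (adjusted p = 0.139).

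The CArG box was searched in RefSeq promoter windows of 300 bases, 250 before and 50 after each annotated start, on GRCm38.p6. Its pattern is the same on both strands. It occurred in 535 of 32851 starts, or 1.63%, and in 5 of the 54 starts, or 9.26%, of the 44 genes of the list that could be matched. Actb, Rac1 and Arpc5l were not matched. None of the 7 genes called lower had it in this window. It was present in Actg1, Arpc4, Myl6, Myl9 and Vcl, and a stretch of 100 bases upstream of the start is printed for the 4 with the box inside it and flanks on both sides, with the box in capitals.
Actg1, chr11:120348531-120348630, minus strand: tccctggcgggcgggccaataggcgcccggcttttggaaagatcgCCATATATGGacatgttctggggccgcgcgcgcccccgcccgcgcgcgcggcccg
Vcl, chr14:20929148-20929247, plus strand: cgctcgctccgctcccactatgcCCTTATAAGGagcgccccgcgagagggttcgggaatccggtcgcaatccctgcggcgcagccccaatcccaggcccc
Myl6, chr10:128493010-128493109, minus strand: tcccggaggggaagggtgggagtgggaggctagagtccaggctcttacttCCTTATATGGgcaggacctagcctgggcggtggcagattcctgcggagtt
Myl9, chr2:156775258-156775357, plus strand: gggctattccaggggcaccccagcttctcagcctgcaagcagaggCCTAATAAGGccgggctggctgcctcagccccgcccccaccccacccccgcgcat
Counted from the start, the box begins at base -90 in Actg1, -227 in Vcl, -50 in Myl6 (at one of its annotated starts) and -161 in Myl9. The log2 fold changes of these 4 genes were 0.87, 0.44, -0.26 and -0.14, and none of them passed the edgeR threshold. A match of these letters is a description of the sequence, not a sign that a factor binds it.

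Marker lists of other cell types were read from the same counts, and Cd9 was their only gene called by edgeR. All 8 hepatocyte markers had a positive log2 fold change, with 0 called by edgeR. At an unadjusted p under 0.05 edgeR placed 5 of the 8 higher, against 13.5% of all genes, and DESeq2 called 3 higher, against 7.06%. The part of hepatocytes in the values of the 47 genes was not tested. The 5 cholangiocyte markers Krt7, Krt19, Epcam, Sox9 and Cldn7 all had a negative log2 fold change, with 0 called by edgeR. At an unadjusted p under 0.05 all 5 were lower, against 12.6% of all genes, and DESeq2 called 3 lower, against 6.91%. The sum of the cholangiocyte markers was between 25.01 and 68.2 CPM in AAV8-GFP mice and between 14.9 and 36.2 CPM in AAV8-AGXT mice. Mouse 315 was at 25.01 CPM and the other AAV8-GFP mice at 53.8 CPM or more. Mouse 315 was the lowest AAV8-GFP mouse in 10 of the 47 genes, Ezr, Gsn, Tmsb10, Flna and Vim among them, and mouse 303 in 24. The part of bile duct cells in those values was not tested.

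Of the 10 macrophage markers 9 had a negative log2 fold change and 0 were called by edgeR. At an unadjusted p under 0.05 edgeR placed 4 lower, against 12.6% of all genes, and DESeq2 called 3 lower, against 6.91%. The sum of the 10 markers was between 937 and 1536 CPM in AAV8-GFP mice and between 303 and 1043 CPM in AAV8-AGXT mice. All 6 markers of monocyte-derived macrophages had a negative log2 fold change, and Cd9 was called at 62.5 ± 7.66 and 30.7 ± 7.59 CPM (SD, n = 4 each, with log2 fold change -1.03 ± 0.18 SE, adjusted p = 0.0298), a tetraspanin that is not specific to macrophages. Sums of this list were between 181 and 273 CPM in AAV8-GFP mice and between 34.2 and 180.1 CPM in AAV8-AGXT mice. Pan-leukocyte sums were between 141 and 243 CPM in AAV8-GFP mice and between 49.7 and 159 CPM in AAV8-AGXT mice, with 0 of 5 markers called by edgeR. At an unadjusted p under 0.05 edgeR placed 2 lower, against 12.6% of all genes, and DESeq2 called 1 lower, against 6.91%. Mouse 308, the lowest of all mice in 24 of the 47 genes, had the lowest sum in each of these lists and in the cholangiocyte list. The part of leukocytes in the values of Coro1a, Capg, Was, Tmsb4x and the other genes was not tested.

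T and NK cell markers had sums between 11.9 and 20.7 CPM in AAV8-GFP mice and between 5.45 and 14.3 CPM in AAV8-AGXT mice, with 5 of 7 negative and 0 called by edgeR. At an unadjusted p under 0.05 edgeR placed 3 lower, against 12.6% of all genes, and DESeq2 called 3 lower, against 6.91%. Neutrophil sums were between 20.3 and 32.3 CPM in AAV8-GFP mice and between 6.83 and 21.8 CPM in AAV8-AGXT mice and B cell sums between 18.6 and 33.8 CPM in AAV8-GFP mice and between 15.6 and 29.6 CPM in AAV8-AGXT mice. Stellate cell sums were between 453 and 584 CPM in AAV8-GFP mice and between 339 and 652 CPM in AAV8-AGXT mice, and endothelial markers, all 7 with a positive log2 fold change, between 151 and 234 CPM in AAV8-GFP mice and between 157 and 323 CPM in AAV8-AGXT mice. Kupffer cell sums were between 230.3 and 362 CPM in AAV8-GFP mice and between 179.8 and 739.7 CPM in AAV8-AGXT mice, with mouse 319 highest. Of the 5 Kupffer cell markers 4 had a positive log2 fold change and 0 were called by edgeR. At an unadjusted p under 0.05 edgeR placed 2 higher, against 13.5% of all genes, and DESeq2 called 1 higher, against 7.06%. Mesothelial markers were near zero, between 1.15 and 8.30 CPM in AAV8-GFP mice and between 0.690 and 3.55 CPM in AAV8-AGXT mice. Ncr1, Ly6g, Msln, Upk3b and Lrrn4 were at 0 in at least 1 mouse.

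**Figure D5:**
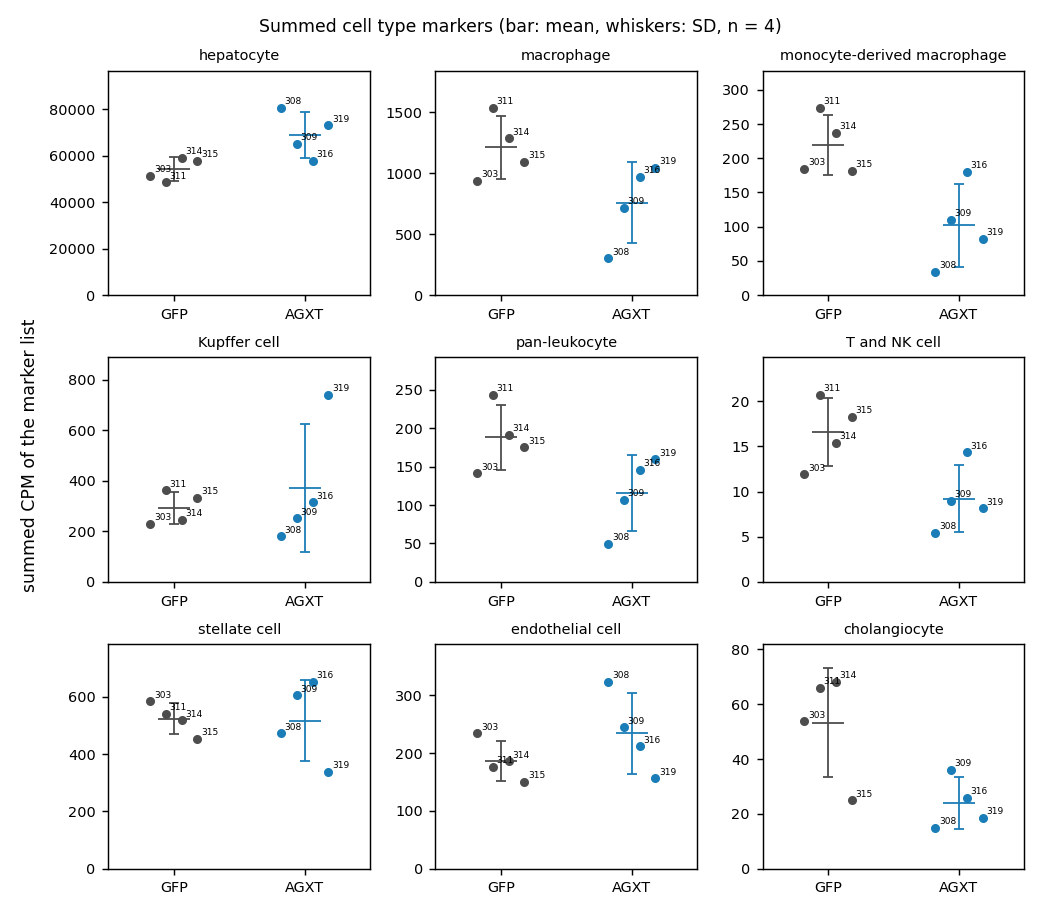
Dots are the summed CPM of 9 marker lists in each mouse, with the group mean and SD (n = 4). Monocyte-derived macrophage sums of the 2 groups do not overlap, AAV8-AGXT mouse 316 at 180.1 CPM lying just below AAV8-GFP mouse 315 at 181 CPM. Cholangiocyte sums overlap, mouse 308 has the lowest macrophage sum, and mouse 315 the lowest cholangiocyte sum of the AAV8-GFP mice.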

How the data were processed

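The authors sequenced stranded mRNA libraries as read pairs of 76 bases. The submitters' processing notes name GRCm38, FastQC 0.11.8, Trimmomatic 0.35, the aligner HISAT2 2.1.0.13 and HTSeq for counting. The deposited values are raw counts per Ensembl gene, 1 table per mouse, without normalization. Per the labels no strand or overlap setting of the counting is given. The genes and lists were chosen with earlier results of these data known.

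Counts were fitted in R 4.3.3 with edgeR 4.0.16 (filterByExpr, TMM, quasi-likelihood test, Benjamini-Hochberg over all tested genes). Log2 fold changes are AAV8-AGXT over AAV8-GFP, with a prior count of 0.125. Log2 ratios of related genes added 0.5 to each count. Alternatives were DESeq2 1.42.0, limma-voom (limma 3.58.1), robust estimation, other scalings and filters, an adjusted p under 0.1, 2 added counts for ratios and each mouse left out. The named genes are the 47 genes and, from each other list, at most 5 with an adjusted p under 0.05 and those given as marker or reference levels. Srf, Mrtfa and Mrtfb were named outside that rule, with their values known. The common biological coefficient of variation was 23.3%, so the spread between mice rather than counting error limits precision. The fit was tested on simulated data. Transgene reads were not analysed here, and the counts of 1 role and of 1 pathway list are not reported here. The labels give no pairing, and no identifying mouse number occurs in both groups. Each mouse was taken as a replicate.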

Additional observations from a re-analysis of the deposited data

Results flagged for a closer look

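In 128 groups of 4 mice (94 for CPM of the 47 genes, 34 for log2 ratios), 9 held a mouse far from the other 3, judged by its gap over the range of the group. Chance alone gives about 1 in 20 such groups, and the groups share the same mice. Mouse 309 of the AAV8-AGXT group gave 5 of them. It was highest in Actn4 at 225.6 CPM (others 184.8 to 189.2), in Rhoa at 117.0 CPM (others 95.1 to 97.2) and in Rhob at 88.3 CPM (others 55.9 to 57.9), and lowest in Arpc3 at 75.1 CPM (others 87.5 to 89.5). Its Rhob to Rhoa log2 ratio was -0.41 (others -0.77 to -0.75).

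In the AAV8-GFP group, mouse 314 was lowest in Pfn1 at 321.7 CPM (others 370.2 to 377.5) and highest in the Arpc5 to Arpc5l log2 ratio at 0.88 (others 0.53 to 0.56). Mouse 303 was lowest in Lcp1 at 86.8 CPM (others 115.8 to 119.9), and mouse 315 lowest in Ezr at 10.5 CPM (others 20.03 to 21.7).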

How the results depend on the processing

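The number of actin cytoskeleton genes called lower, 7, was 13 with DESeq2, 11 with total-count scaling and 13 at an adjusted p under 0.1, and between 0 and 7 with a mouse left out. Genes called higher were 1 with DESeq2 and 1 at an adjusted p under 0.1. Their median log2 fold change was between -0.31 and -0.23 with a mouse left out and -0.47 by total counts, and their summed AAV8-AGXT level, 85.7% of AAV8-GFP, was 72.9% by total counts. All genes called higher were 1077 with DESeq2, 144 by total counts, 1074 at an adjusted p under 0.1 and between 2 and 379 with a mouse left out, and those called lower 1054, 857, 952 and between 0 and 325. Pathway genes called lower were 28, 18, 24 and between 0 and 8. Pathway genes called higher, 1 by edgeR as described, were 3 with DESeq2 and 0 with RLE, upper-quartile or total-count scaling, without the filter, at a mean CPM of at least 1 and with any mouse left out. The cause was not tested.

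Signs of small changes turned. By total counts Arpc1a was -0.22, Arpc2 -0.18, Arpc5l -0.20, Cfl2 -0.15, Tpm3 -0.18, Actn4 -0.15, Zyx -0.11, Rhoa -0.17 and Rac1 -0.17, and by upper quartiles Arpc1a -0.039, Arpc2 -0.0084, Arpc5l -0.023, Tpm3 -0.0014 and Rac1 -0.00068. At a mean CPM of at least 1, Arpc1a was -0.00030. With a mouse left out, Arpc1a ran from -0.033 to 0.062, Arpc4 from -0.134 to 0.027, Arpc5l from -0.035 to 0.085, Cfl2 from -0.022 to 0.155, Myl9 from -0.310 to 0.046, Actn4 from -0.011 to 0.120, Rhoa from -0.029 to 0.092 and Rac1 from -0.0040 to 0.117. The 9 ratios with an exact permutation p of 0.0286 had a p between 0.0286 and 0.0857 with a mouse left out, and 34 of 72 such tests passed 0.05 no longer. Of the 9, this was so for 7 without mouse 314, 6 each without 311 and 308, 5 without 303, 4 without 315 and 2 each without 309, 316 and 319. With a mouse left out few splits of the mice remain, so the p moves in coarse steps. The groups stayed apart in all 9 ratios whichever mouse was left out. These counts are therefore no measure of how much a ratio depends on a given mouse. No ratio turned sign, also with 2 counts added. No paired analysis was made because the labels give no pairing of the mice.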

Other observations

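Actb is in wide use as a reference gene for RT-PCR, so its values were set beside those of 13 other reference genes. None of the 14 was called by edgeR, with 4 at an unadjusted p under 0.05, close to the 26.2% of all genes. DESeq2 called 2 higher, against 7.06% of all genes. Tbp, a general transcription factor, had a log2 fold change of 0.03 (adjusted p = 0.871) and Actb of -0.20 (adjusted p = 0.367). Gapdh, a glycolytic enzyme, varied widely within groups, at 362, 401, 148 and 286 CPM in AAV8-GFP and 429, 300.3, 177 and 121 CPM in AAV8-AGXT mice. Pgk1 and Sdha, enzymes of glycolysis and of the citric acid cycle, and Hprt, of purine salvage, were higher in every AAV8-AGXT mouse than in any AAV8-GFP mouse, with log2 fold changes of 0.64 (adjusted p = 0.0678), 0.39 (adjusted p = 0.123) and 0.31 (adjusted p = 0.0950). Ywhaz, a 14-3-3 protein, was lower without overlap, -0.24 (adjusted p = 0.176).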
